A study of Homo sapiens with 3 samples.

Results

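The NR4A orphan nuclear receptors NR4A1 (also called NUR77), NR4A2 (NURR1) and NR4A3 (NOR1) were read in human THP-1 macrophages after imiquimod (IMQ), with and without the fungal benzenoid DMD. All probes whose gene name in the scanner files was one of these 3 symbols were taken, which gave 5 of the 58201 transcript probes and 3 of 25044 genes with a symbol. NR4A1 was represented by 1 probe, NR4A2 by 2 and NR4A3 by 2, each with a single spot per array. The family was picked with its values on these arrays already known, so the levels below are a description of 3 arrays and carry no test.

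THP-1 cells, which come from a human monocytic leukemia, had in all 3 conditions been turned into macrophage-like cells with the phorbol ester PMA (100 ng/mL for 24 to 36 h, then fresh medium overnight). The conditions were untreated macrophages (Ctrl), macrophages stimulated with IMQ, a ligand of toll-like receptors that activates macrophages, and macrophages that received DMD ahead of the IMQ stimulus (IMQ+DMD). The sample labels give 4 h for every array, whereas the methods describe a longer IMQ exposure of THP-1 cells in general, so that the exposure time behind these values is uncertain. The labels name no dose and write the third treatment as IMQ+X, taken here to be DMD, the sole further compound named for the series. Each condition was 1 culture on 1 one-color array (n = 1), so that no difference has a replicate check and condition, culture and array cannot be told apart. The comparison of IMQ with Ctrl asks what the stimulus did, and that of IMQ+DMD with IMQ asks what DMD changed.

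NR4A receptors are transcription factors with no known classical ligand, whose activity follows mainly from how much of them the cell makes. They are immediate-early genes, switched on within minutes to hours by growth factors, cyclic AMP, calcium and toll-like receptor ligands through factors such as CREB, NF-κB and MEF2. They bind the element AAAGGTCA as monomers, and NR4A1 and NR4A2 can also pair with the retinoid X receptors. In macrophages they are induced by inflammatory stimuli and are known mainly for restraining inflammatory transcription.

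The probes read different stretches of the transcripts, and this matters for the values, so the stretches are shown 5′ to 3′ in lower case. For the NR4A2 stop-codon probe the whole oligonucleotide of 60 bases is given with the stop codon in capitals, and for the others 30 bases are given, with AATAAA (the letters of the common polyadenylation signal) or ATTTA (the core of AU-rich elements, which mark short-lived mRNAs) in capitals where present in those bases. The NR4A1 probe also holds 1 ATTTA, which starts before the 30 bases shown.
NR4A1: tttaatatattgAATAAAaaatagacatgt
NR4A2, downstream: aagttttctgctgtaaagaaagctgtaata
NR4A2, stop codon: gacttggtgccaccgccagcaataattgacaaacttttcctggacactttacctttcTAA
NR4A3, variant 4: atcagggtctctATTTAtggctactagtaa
NR4A3, long: gaaatcaggaagccaccagctgttaatgga

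The NR4A1 probe (chr12:52453226-52453285, hg19, plus strand) starts at base 3451 of NM_001202234 and is also listed for the 3 other RefSeq transcripts of the gene on this array design. Only 20.0% of its bases are G or C. The NR4A2 probes lie on the minus strand of chromosome 2, the stop-codon probe at chr2:157182256-157182315 and the downstream probe at chr2:157181727-157181786, which is 529 bases further along the same transcript (NM_006186). The NR4A3 probes start 33234 bases apart on the plus strand of chromosome 9. The variant 4 probe (chr9:102595751-102595810) is listed for NM_173199 alone among RefSeq transcripts, whereas the long probe (chr9:102628985-102629044) is listed for NM_173200 and NM_006981. The NR4A3 probes therefore read different transcripts of the gene.

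After IMQ, the transcripts of NR4A2 and of the long NR4A3 forms were among the most strongly raised on the arrays, NR4A1 was seen with a dim signal on the IMQ array only, and the variant 4 transcript of NR4A3 stayed dim. All 5 probes were at least 2-fold higher on the IMQ array than on the Ctrl array, where 4.31% of the 41104 probes compared were (and 3.48% were at least 2-fold lower). For NR4A1 this is a lower bound, and for variant 4 of NR4A3 the Ctrl value was not well above background. Their log2 differences had a median of 3.25 and ran from 1.52 to 5.50, against a median of -0.01 over all probes compared. A log2 difference of 1 is 2-fold. A probe that the scanner software did not rate well above background on an array was raised, where it lay lower, to a floor. The floor was the dimmest value among probes rated well above background (a log2 value of 4.04 on Ctrl, 4.57 on IMQ and 4.08 on IMQ+DMD). A difference from a raised value is a bound.

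**Figure D1:**
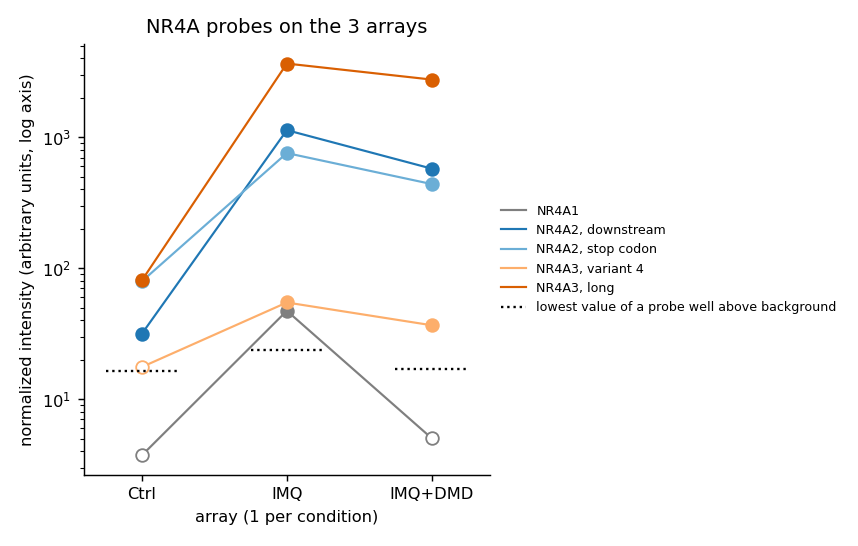
Normalized intensity of each NR4A probe (log axis, arbitrary units) on the Ctrl, IMQ and IMQ+DMD arrays, 1 array per condition; filled points were well above background, open points were not, and dotted lines mark the lowest value of a probe well above background. The lines join values of 1 probe and heights of different probes are not comparable; the long NR4A3 probe goes from 81.0 to 3657 and then 2760, and the NR4A1 probe is above the dotted line on the IMQ array only.

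The long NR4A3 probe had a normalized intensity of 81.0 on Ctrl, 3657 on IMQ and 2760 on IMQ+DMD. The signal of the long NR4A3 forms was therefore lower in untreated macrophages than on both arrays with IMQ. Its log2 difference between IMQ and Ctrl was 5.50 (45.1-fold), with a technical SD of 0.23 taken from probes of similar brightness that have 10 spots on each array. Such an SD covers spots within an array and leaves out the spread between arrays or cultures. Only 13 of the 41104 probes compared, the long NR4A3 probe included, had a difference as large. Its spot on the IMQ array was less even than most, with a pixel SD of 17.3% of the mean, larger than in 88.1% of 3017 spots of similar brightness, although the scanner software gave it no outlier mark. The part of this unevenness in the value was not tested.

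The variant 4 probe of NR4A3 had a normalized intensity of 17.6 on Ctrl, where it was not well above background, 54.7 on IMQ and 36.7 on IMQ+DMD. After IMQ its level was 3.11-fold that of Ctrl (log2 difference 1.64, technical SD 0.44). The Ctrl value of this probe lay above the floor and was used as measured, so the fold is not a bound. With a Ctrl value not well above background, whether the rise of variant 4 differed from that of the long forms was not tested.

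The downstream NR4A2 probe had a normalized intensity of 31.7 on Ctrl, 1134 on IMQ and 576 on IMQ+DMD. Its log2 difference between IMQ and Ctrl was 5.16 (35.8-fold, technical SD 0.29), and 21 of the probes compared, this one included, were raised as much. The stop-codon probe of NR4A2 had 79.6 on Ctrl, 758 on IMQ and 439 on IMQ+DMD, a log2 difference of 3.25 between IMQ and Ctrl (9.52-fold, technical SD 0.23). As large a rise was seen for 96 of the probes compared, this one included. Both probes of NR4A2 cleared the background on each of the 3 arrays and put the arrays in the same order, with IMQ highest and Ctrl lowest. They differed in the size of the rise by 1.91 log2 units, which is more than the technical SD of that gap (0.37). All RefSeq and Ensembl transcripts listed for one NR4A2 probe are also listed for the other.

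NR4A1, the founding member of the family and a known regulator of monocyte survival and macrophage activation, was well above background on the IMQ array alone. Its normalized intensity was 3.73 on Ctrl, 47.3 on IMQ and 5.03 on IMQ+DMD, and neither of the outer values was rated well above background. Before background subtraction, the mean pixel signal of the spot was 43.7, 86.7 and 53.3, where 95% of the negative control spots lay at or under 56.3 on Ctrl, 50.3 on IMQ and 50.1 on IMQ+DMD. The Ctrl value thus lay inside the range of the controls and the IMQ+DMD value slightly above it. After IMQ its level was at least 2.87-fold that of Ctrl (log2 difference 1.52, technical SD 0.49). Its spot on the IMQ array had a larger pixel SD than 63.0% of 7915 spots of similar brightness. NR4A1 has no second probe here, and the part of the low G and C content of its probe in the dim signal was not tested.

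With DMD before IMQ, all 5 probes were lower than after IMQ alone, by less than 2-fold for NR4A2 and NR4A3 and by at least 2.80-fold for NR4A1. Only the NR4A1 probe reached 2-fold, that is 1 of 5 as a bound, where 1.31% of the 40825 probes compared were at least 2-fold lower and 1.09% higher. The median log2 difference of the 5 probes was -0.79, against -0.01 over all probes compared. These differences share the IMQ array with the rise described above, so a value that is high by chance on that array would enter both. Of the 1771 probes higher by 2-fold or more with IMQ, 84.8% were lower with DMD, with a median log2 difference of -0.39, so a lower value with DMD was usual for such probes.

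**Figure D2:**
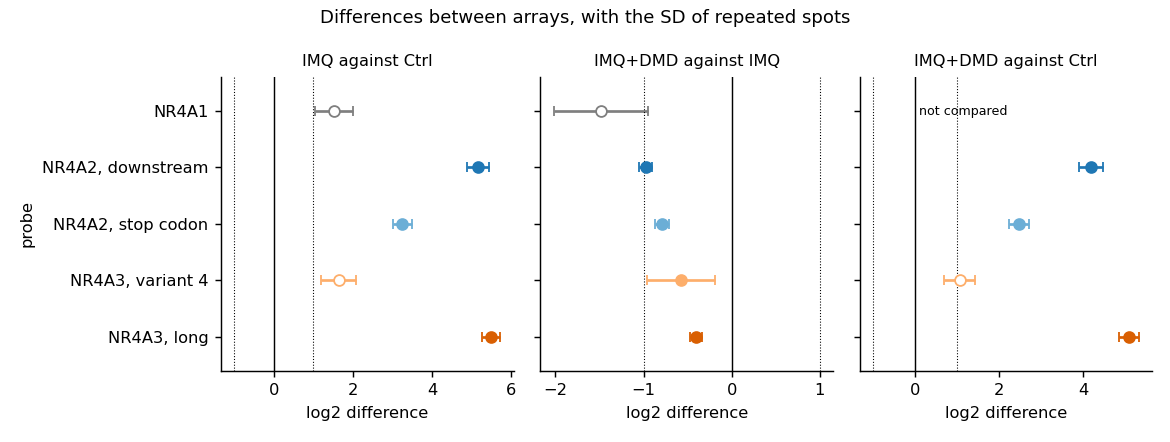
Log2 difference of each NR4A probe between single arrays for IMQ against Ctrl, IMQ+DMD against IMQ and IMQ+DMD against Ctrl. Bars are the technical SD from repeated spots and dotted lines mark 2-fold. Open points had a value not well above background, which makes those of NR4A1 bounds. All differences are above 0 against Ctrl and below 0 between IMQ+DMD and IMQ, from -1.48 for NR4A1 to -0.41 for the long NR4A3 probe.

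The downstream NR4A2 probe was lower by a log2 difference of -0.98 (1.97-fold, technical SD 0.07), and the stop-codon probe by -0.79 (1.72-fold, technical SD 0.08). Both NR4A2 probes moved the same way, and the gap between them was 0.19 with a technical SD of 0.11. As large a fall as that of the downstream probe was seen for 574 of the 40825 probes compared, and as large a fall as that of the stop-codon probe for 1172. The long NR4A3 probe was lower by -0.41 (1.33-fold, technical SD 0.07), a fall that 4581 probes matched or passed.

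For the variant 4 probe of NR4A3 the log2 difference was -0.58 with a technical SD of 0.39, which is within 2 technical SDs of 0, and its spot on the IMQ+DMD array had a larger pixel SD than 96.0% of spots of similar brightness. NR4A1 gave -1.48 as a bound (technical SD 0.54), because its value on the IMQ+DMD array was not rated well above background. The technical SD of dim values rests on few repeated probes, for NR4A1 on 2 with IMQ and 3 with IMQ+DMD. On Ctrl it rests on 3 for the downstream NR4A2 probe, and on 6 for the stop-codon probe and for the long NR4A3 probe.

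Against Ctrl, NR4A2 and NR4A3 remained well above their untreated level after IMQ+DMD. The 4 probes that could be compared were all at least 2-fold higher, where 3.09% of 43689 probes were (and 4.91% were lower). The variant 4 probe of NR4A3 no longer reached 2-fold on unnormalized values (0.77), on the spike-in scale (0.84) or with normexp (0.33). On the log2 scale, IMQ+DMD exceeded Ctrl by 1.06 for the variant 4 probe of NR4A3, whose Ctrl value was not well above background. The difference was 5.09 for the long NR4A3 probe (34.1-fold), 4.18 for the downstream NR4A2 probe (18.2-fold) and 2.46 for the stop-codon probe (5.52-fold). In percent of the log2 difference between IMQ and Ctrl, this was 92.6% for the long NR4A3 probe and 81.1% and 75.8% for the NR4A2 probes. Among probes well above background on all arrays, as these are, the median was 83.4% over the 1303 higher after IMQ by 2-fold or more and 90.9% over those higher by 8-fold or more. The share uses the Ctrl array in both of its terms and is given as a description. NR4A1 was not rated well above background on either array and has no fold here.

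The order of the probes in their rise held in every scaling tried for NR4A2 and the long NR4A3 form, but the 2-fold call of the dim probes did not. On unnormalized values, the difference of NR4A1 was 0.87 and that of the variant 4 probe 0.99, and on a scale set by spike-in controls they were 0.80 and 0.91. The median of probes well above background on all arrays shifted by -0.49 and -0.56 on those scales. With normexp background correction they were 0.55 and 0.50. With scaling to the 75th percentile, the downstream NR4A2 probe was 2-fold lower after IMQ+DMD (-1.06), and with spike-in scaling (-0.93) or normexp background correction (-0.54) NR4A1 was not.

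**Figure D3:**
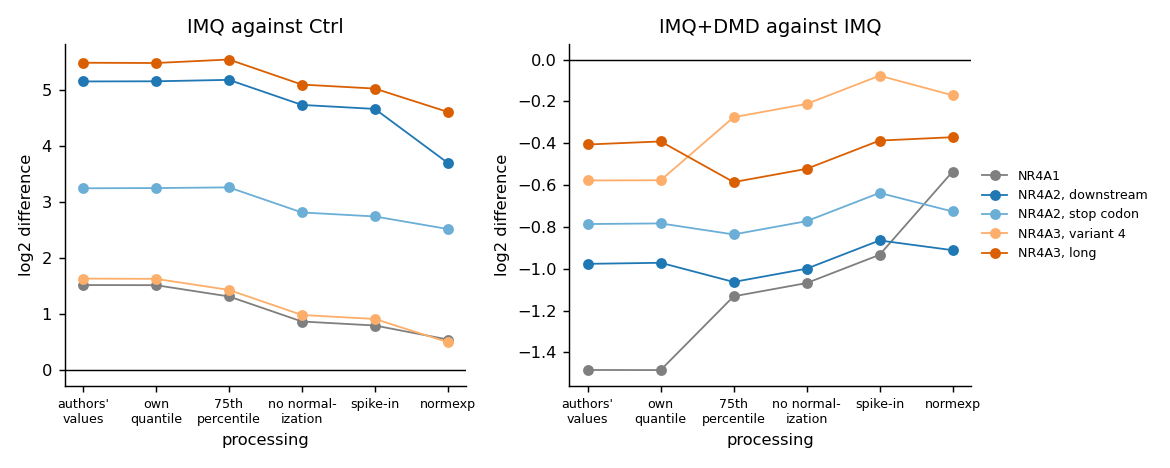
Log2 difference of each NR4A probe under the authors' normalized values and 5 other ways of processing, for IMQ against Ctrl and IMQ+DMD against IMQ. NR4A1 is a bound in both panels, and NR4A3 variant 4 for IMQ against Ctrl rests on a Ctrl value not well above background. All values keep their sign; the long NR4A3 probe stays between 4.62 and 5.55 after IMQ, and its variant 4 probe comes within 0.08 of 0 between IMQ+DMD and IMQ under spike-in scaling.

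Within the nuclear receptor superfamily the NR4A genes stood at the upper end after IMQ. The list held 47 nuclear receptor genes, all on the array, and 43 could be compared between IMQ and Ctrl, each through the probe that was brightest on average (for NR4A2, the stop-codon probe). Of these, 4 were at least 2-fold higher and 0 at least 2-fold lower, where 4.29% and 4.49% of 20802 genes were. On unnormalized values these counts were 3 and 10, where 1.71% and 15.6% of all probes compared were. They were also 3 and 10 on the spike-in scale, where 1.55% and 18.9% of all probes were. The 4 were NR4A3 (5.50), NR4A2 (3.25), PPARD (1.85) and NR4A1 (at least 1.52). PPARD, a fatty acid sensor, was higher by 1.39 at its second probe. The median over the list was 0.03 (-0.42 on unnormalized values and -0.50 on the spike-in scale), and the other receptors compared lay between -0.88 for NR1I2 (a bound) and 0.78 for THRB (a bound).

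Between IMQ+DMD and IMQ, 1 of 41 nuclear receptor genes compared was at least 2-fold lower and 0 higher, where 0.98% and 0.83% of 20724 genes were. It was NR4A1, as a bound. NR4A2 stood at place 40 of the 41 from the highest difference and NR4A3 at place 36. The glucocorticoid receptor NR3C1 had log2 differences of 0.68 after IMQ and -0.17 with DMD, and RXRA, the retinoid X receptor that can pair with NR4A1 and NR4A2, had -0.25 and 0.22. Against Ctrl, 4 of 42 receptor genes were at least 2-fold higher after IMQ+DMD and 1 lower, where 3.38% and 5.97% of 21556 genes were. NR4A3, NR4A2, PPARD and the thyroid hormone receptor THRB (a bound) were the higher ones, and the xenobiotic receptor NR1I2 (a bound) the lower one.

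**Figure D4:**
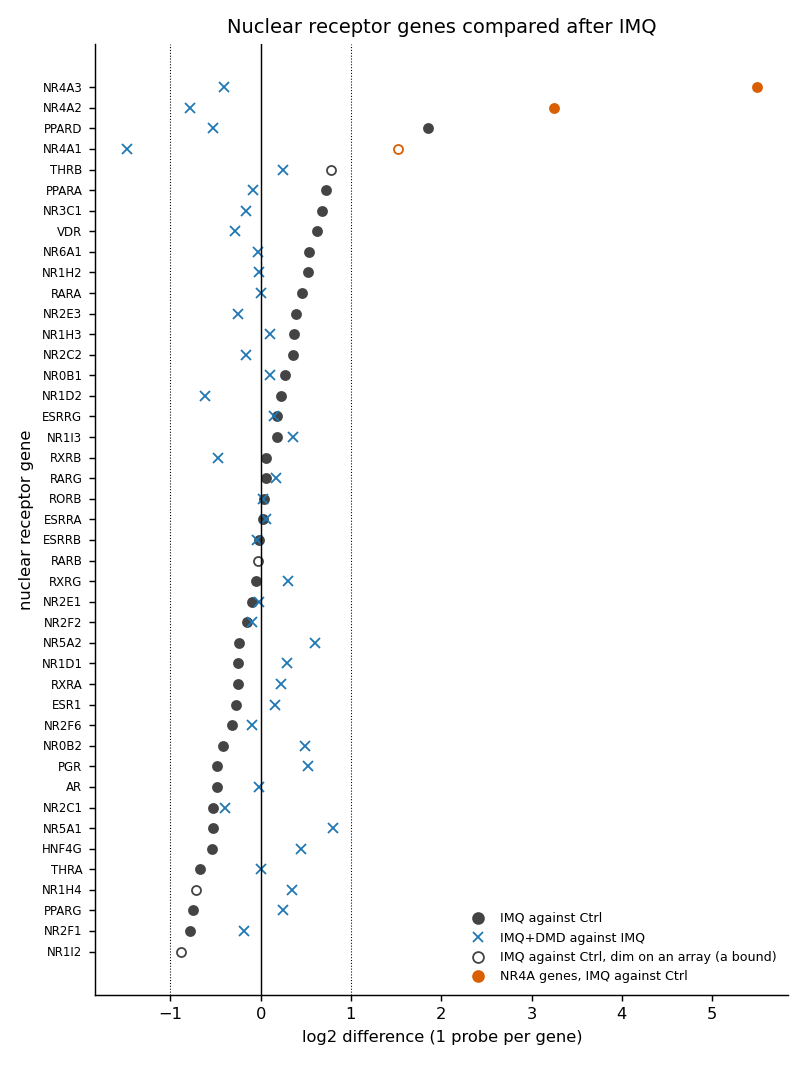
Log2 difference of the 43 nuclear receptor genes compared between IMQ and Ctrl (circles, open where the gene was dim on an array and the value is a bound; NR4A genes in orange) with the difference between IMQ+DMD and IMQ beside it (crosses), 1 probe per gene and 1 array per condition. NR4A3, NR4A2, PPARD and NR4A1 lie to the right of the dotted 2-fold line; both comparisons share the IMQ array.

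Upstream, among the factors that switch on NR4A transcription, CREM and NFKB1 were the most raised after IMQ. Of 25 genes (CREB and its coactivators, MEF2, SRF, NF-κB, NFAT and MAP kinase genes), 3 were at least 2-fold higher after IMQ and 2 lower, where 4.29% and 4.49% of all genes compared were. Their median log2 difference was 0.04, but -0.38 on unnormalized values and -0.45 on the spike-in scale. CREM, which encodes both activators and the feedback repressor ICER of cyclic AMP signalling, was higher by 2.59 and by 1.27 at its second probe. NFKB1, the p105/p50 subunit of NF-κB, was higher by 1.54, and JUND, an AP-1 subunit, by 1.02. MEF2C, a MEF2 factor of myeloid and muscle cells, was lower by -1.21, as was the calcium-responsive factor NFATC1 (-1.23, and -0.49 at its second probe). CREB1 itself had a log2 difference of 0.17. With DMD, 0 of the 25 were 2-fold higher or lower than after IMQ, where only 0.83% and 0.98% of all genes compared were. Their differences lay between -0.64 and 0.15.

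Of 23 genes for partners, corepressors and modifying kinases of the NR4A proteins, 1 was at least 2-fold higher after IMQ and 0 lower, a share close to the 4.29% of all genes that were higher. On unnormalized values and on the spike-in scale, 1 was higher and 3 lower, where 15.6% and 18.9% of all probes were lower. The higher gene was HIF1A, the oxygen-sensitive subunit of hypoxia-inducible factor (1.67, and 1.62 at its second probe). The median of this list was 0.00 (-0.34 on unnormalized values and -0.41 on the spike-in scale). With DMD, 0 of the 23 were 2-fold higher or lower than after IMQ, where only 0.83% and 0.98% of all genes were. Among 17 compared genes listed as targets of NR4A receptors in other tissues or immune cells, 2 were at least 2-fold higher after IMQ and 1 lower, against 4.29% and 4.49% of all genes. The lower count was 3 on unnormalized values and 4 on the spike-in scale, where 15.6% and 18.9% of all probes were lower. The median moved from -0.03 to -0.50 and -0.57. The higher genes were NFKBIA, the inhibitor of NF-κB (3.54), and IRF4, a lymphoid and macrophage transcription factor that was not above background in Ctrl (at least 2.31). BIRC5, the mitotic survivin gene, was lower by -1.08. IRF4 was the only gene of this list at least 2-fold lower with DMD (-1.49), 1 of 16 compared, against 0.98% of all genes.

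Genes known to respond to cyclic AMP and CREB, as the NR4A genes do, were higher together where they could be compared. Whether cyclic AMP or CREB had a part in their rise was not tested. Of 17 on the array 14 were compared, and CRH, SST and PPARGC1A were not well above background on the IMQ array. Of the 14, 12 were at least 2-fold higher after IMQ and 0 lower, where 4.29% and 4.49% of all genes were. Their median log2 difference was 2.28 against -0.03 over all genes compared. On unnormalized values the median was 1.53 and on the spike-in scale 1.46. On each, 10 genes were at least 2-fold higher, where 1.71% and 1.55% of all probes were. PDE4B, a phosphodiesterase that degrades cyclic AMP, was higher by 4.72, the MAP kinase phosphatase DUSP1 by 3.65, the EGF receptor ligand AREG by 3.33 and 3.36 at its 2 probes, and the NAD salvage enzyme NAMPT by 3.10. The cytokine gene IL6 was higher by 2.95, the phosphodiesterase PDE4D by 2.56, the neurotrophin gene BDNF by 2.01 and the kinase SIK1 by 1.93. PDE4D has 2 other probes with signal, which gave 0.88 and, for one that was dim on an array, -0.44. The second probes of IL6 and BDNF were not well above background on the IMQ array and could not be compared.

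With DMD, all 14 of these genes were lower than after IMQ, where 53.3% of all genes compared and 81.7% of the 893 genes at least 2-fold higher after IMQ were lower. Both comparisons use the IMQ array, on which these genes were high. The median log2 difference of the 14 was -0.37, against -0.31 over the 893 (from -0.26 to -0.52 over the other ways of processing, with 13 of 14 lower under spike-in scaling). PDE4D was the only one to reach 2-fold (-1.30), and its other probes gave -0.55 and 0.16. PDE4B had -0.92 and BDNF -0.78, next to -0.98 and -0.79 for the NR4A2 probes.

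Of 23 other immediate-early genes compared, 12 were at least 2-fold higher after IMQ and 1 lower, where 4.29% and 4.49% of all genes were, with a median of 1.02. On unnormalized values 9 were higher and 2 lower (median 0.63), where 1.71% and 15.6% of all probes were. On the spike-in scale the counts were 8 and 2 (median 0.56), where 1.55% and 18.9% of all probes were. FOS and FOSB, which encode AP-1 subunits, are in both this list and the cyclic AMP list, and JUND is also among the inducers. The stress-response gene IER3 was higher by 5.10 and the circadian repressor BHLHE40 by 3.43. FOSL2, an AP-1 subunit, was higher by 2.76, MAFF, a small Maf protein, by 2.39 and the zinc-finger factor EGR1 by 2.28. KLF4, a monocyte differentiation factor, was lower by -2.03. With DMD, 0 of the 23 were 2-fold higher or lower, where only 0.83% and 0.98% of all genes were. Their median was -0.05 with 7 of 23 higher, where 46.6% of all genes compared were higher. These lists held 148 genes on the array, each taken once, and not all could be compared. Among those compared, 30 were at least 2-fold higher after IMQ and 4 lower, where 4.29% and 4.49% of all genes were. On unnormalized values these counts were 26 and 22, and on the spike-in scale 25 and 23, beside the shares of all probes just given.

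**Figure D5:**
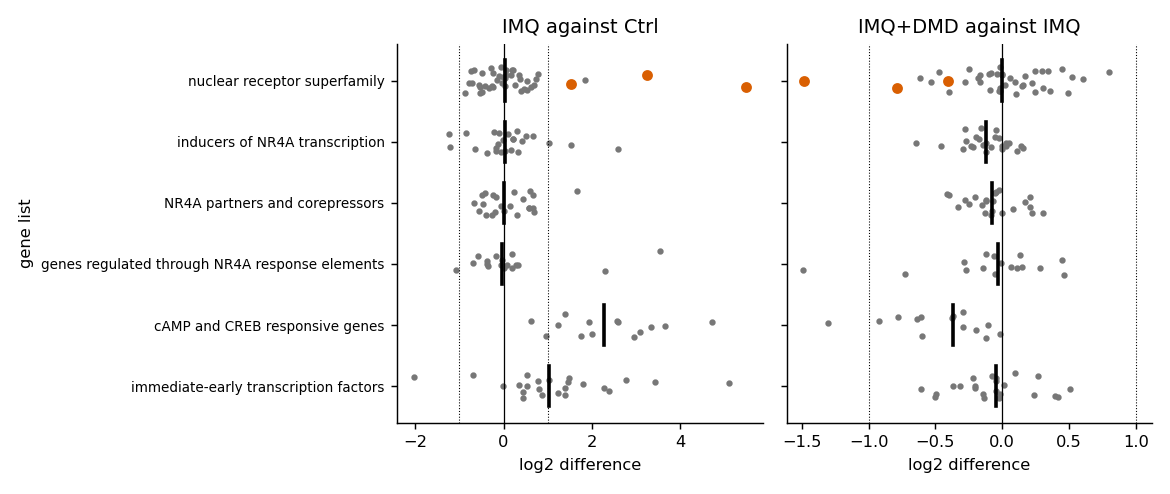
Log2 difference of each compared gene of the 6 gene lists for IMQ against Ctrl and IMQ+DMD against IMQ (1 point per gene, black bars at the list median, NR4A genes in orange, dotted lines at 2-fold). The genes that respond to cyclic AMP and CREB have a median of 2.28 after IMQ and -0.37 with DMD, while the medians of the first 4 lists lie between -0.12 and 0.04 in both comparisons.

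The genes whose pattern was most like that of each receptor were searched among 20113 other genes well above background on the IMQ array, by the distance between their 2 log2 differences (IMQ against Ctrl and IMQ+DMD against IMQ). Nearest to the long NR4A3 probe were SOCS3, a feedback inhibitor of cytokine receptors (5.43 and -0.46, distance 0.08), then SLC43A2, IER3, GFPT2 and CSF2 (distances from 0.39 to 0.42, with CSF2 dim on an array). Nearest to the downstream NR4A2 probe were OSM, the cytokine oncostatin M (4.83 and -0.88, distance 0.34), PDE4B (0.44), IDO1, the first enzyme of tryptophan breakdown (0.50), SLC43A2 and IL11. All 5 genes nearest to NR4A1 were dim on at least 1 array, so that only bounds are alike there. This likeness rests on 3 arrays.

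The promoter of NR4A3 is shown because its long probe had the largest rise of the family. Of the 3 genes, NR4A1 and NR4A3 were matched in the promoter table and NR4A2 was not. In the 250 bases before its RefSeq start (chr9:99821635-99821884, GRCh38.p14, plus strand), the half-site of the cyclic AMP response element, TGACG, occurs 4 times on either strand (capitals, CGTCA on the reverse), at positions -109, -91, -83 and -25, with no overlap between them.
NR4A3 promoter: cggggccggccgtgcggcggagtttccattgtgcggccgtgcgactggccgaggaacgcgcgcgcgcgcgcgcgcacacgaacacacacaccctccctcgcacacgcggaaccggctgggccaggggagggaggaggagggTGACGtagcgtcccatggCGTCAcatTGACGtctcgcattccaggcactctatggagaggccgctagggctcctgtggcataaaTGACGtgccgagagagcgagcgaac

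Of 35116 RefSeq promoter windows of this length, 21.2% hold TGACG at least once on either strand and 83 (0.236%) hold it 4 times or more. The full element TGACGTCA (in 1.65% of windows), the NR4A element AAAGGTCA (1.05%) and the CArG, MEF2 and NF-κB motifs (1.16%, 0.515% and 9.96%) are not in the NR4A3 window. The table holds 2 windows for NR4A1, before its upstream starts on chromosome 12, and none of these letters occur in either, TGACG included. No bases outside these 2 windows were searched for NR4A1, so the absence holds for these starts only. A match is only a run of letters, and no binding was measured.

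The 3 arrays differed in brightness. The share of probes well above background was 72.0% on Ctrl, 66.6% on IMQ and 71.9% on IMQ+DMD, and the median intensity before normalization was 94.5, 61.8 and 76.4, so that the IMQ array, on which the NR4A probes were brightest, was the dimmest in all. As a check of the cell type, all 12 monocyte and macrophage markers measured were well above background on every array, and their median difference after IMQ was -0.44 on the log2 scale. So were 6 of 6 T cell and 5 of 5 B cell markers, and 2 to 3 of 5 epithelial and 3 of 5 fibroblast markers. Being above background therefore does not by itself tell these cell types apart here. IL7R was the only T cell marker at least 2-fold higher after IMQ (3.70), and its part in the NR4A values was not tested.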

How the data were processed

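RNA of 3 THP-1 cultures was hybridised to 3 Agilent one-color arrays. Per the file headers, the authors read spot intensity with Feature Extraction 10.5.1.1 (hg19 design) and deposited raw intensity and quantile-normalized intensity per probe, together with a detection word. The normalized intensity was used here on the log2 scale, and quality marks and pixel statistics came from the scanner files. Comparisons needed a signal well above background on the brighter array. The number of arrays limits the precision, and with 1 array per condition no p-values were computed.

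The technical SD of a difference was the root of the summed squares of the median SD of the 300 probes with 10 spots, within 0.5 log2 units of each value. Alternatives were quantile normalization here, scaling to the 75th percentile or to 8 spike-in probes, no normalization, normexp with an offset of 50 (limma 3.58.1, R 4.3.3), no floor, other thresholds (1.5-fold and 4-fold), and signal on both arrays. Differences and calls were tested on simulated data, with changes above 2-fold put only into probes brighter than the NR4A probes are on Ctrl. That test does not bear on dim or floored values or on smaller changes. The members and gene lists were chosen with earlier results of these data known, and named genes were the probes of the members, list genes past 2-fold (at most 8 per list), RXRA, CREB1 and CREM, and the 5 nearest genes. NR3C1, THRB, IL7R, SIK1 and the extremes of a list were named after their values were seen. One result of the nuclear receptor list is not reported here, and its gene is in no count of the lists. Columns of samples left unused numbered 0. Python 3.11.15, numpy 2.4.6, pandas 2.3.3 and matplotlib 3.10.9 were used.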

Additional observations from a re-analysis of the deposited data

How the results depend on the processing

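No paired analysis was possible because each condition had 1 array. For the 5 NR4A probes, the sign of all differences held in every alternative. With the scanner values quantile normalized here, no value moved by more than its technical SD. For IMQ against Ctrl, the values of NR4A1, NR4A2 downstream, NR4A2 stop codon, NR4A3 variant 4 and NR4A3 long were 0.87, 4.74, 2.82, 0.99 and 5.11 on unnormalized values, 0.80, 4.67, 2.75, 0.91 and 5.03 on the spike-in scale, and 0.55, 3.70, 2.52, 0.50 and 4.62 with normexp. Between IMQ+DMD and IMQ, the 75th percentile gave -1.06 for NR4A2 downstream and -0.59 for NR4A3 long, and unnormalized values -0.52 for the latter. Spike-in scaling gave -0.93 for NR4A1, -0.86 and -0.64 for NR4A2 and -0.077 for NR4A3 variant 4, and normexp -0.54 for NR4A1 and -0.17 for NR4A3 variant 4. For IMQ+DMD against Ctrl, NR4A2 downstream, NR4A2 stop codon and NR4A3 long had 3.74, 2.05 and 4.58 on unnormalized values, 3.81, 2.11 and 4.65 on the spike-in scale, and 2.79, 1.80 and 4.24 with normexp, where NR4A3 variant 4 had 0.33. With no floor, NR4A1 had 3.66 and -3.23, from values not rated well above background. The normexp offset is added to every spot, which narrows differences of dim probes by construction; otherwise the cause was not tested.

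The number of genes of the 6 lists at least 2-fold lower after IMQ was 4, against 22 on unnormalized values, 23 on the spike-in scale, 14 at 1.5-fold and 1 at 4-fold; the number higher was 30, and 17 at 4-fold. Over all probes compared, 4.31% were higher and 3.48% lower, against 1.71% and 15.6% on unnormalized values and 1.55% and 18.9% on the spike-in scale. Between IMQ+DMD and IMQ, 3 genes were lower and 0 higher, with 0 lower under normexp and at 4-fold, 1 lower and 1 higher on the spike-in scale, 1 higher on unnormalized values, and 12 lower and 2 higher at 1.5-fold. Of all probes, 1.09% were higher and 1.31% lower, against 3.09% and 0.643% with the 75th percentile, 3.96% and 0.544% on unnormalized values, and 6.43% and 0.396% on the spike-in scale. For IMQ+DMD against Ctrl, 29 were higher and 4 lower, with 7 lower with the 75th percentile, 19 on unnormalized values, 17 on the spike-in scale, 19 at 1.5-fold and 0 at 4-fold, where 13 were higher. Of all probes, 3.09% were higher and 4.91% lower, against 1.55% and 10.4% on unnormalized values and 1.73% and 9.02% on the spike-in scale. Counts of single lists stayed within 1.5 times in 205 of 288 cases. Signal over background limits NR4A1 to bounds and leaves NR4A3 variant 4 with a dim Ctrl value.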
